A study of Mus musculus with 6 samples.

Results

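The genes described here encode the protein part of the cytosolic ribosome, as transcribed in Entpd8 knockout (KO) and wild-type (WT) mouse livers. They were chosen by name from the deposited gene table: protein-coding genes whose symbol starts with Rpl or Rps and a digit, with Rplp0, Rplp1, Rplp2 and Rpsa, without Rps6k kinases and pseudogenes. This gave 86 of 45706 genes in the table, on 19 chromosomes. They comprised 43 large subunit genes, 3 genes of the large subunit's stalk (Rplp0, Rplp1, Rplp2), 31 small subunit genes and 8 paralogs. The last, Rps19bp1, encodes a binding partner of a ribosomal protein and was admitted by its symbol alone.

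Poly(A) RNA of liver was sequenced in 3 libraries labelled ENTPD-8 knockout and 3 labelled wild type, all from mice bred in a specific pathogen-free facility. The series addresses the part of NTPDase8, the ectonucleotidase that Entpd8 encodes, in liver ischemia-reperfusion injury. Strain, sex, age, the way the deletion was made and whether these livers had been ischemic are not given in the labels. Nor is it given that each library came from its own mouse, and the p-values therefore cover only the variation among these libraries, which may be technical. Below, KO livers and WT livers stand for these libraries, and n counts libraries. Library totals ran from 32768774 to 46473531 estimated counts. Entpd8 itself stood at 0.382, 0.723 and 1.09 CPM (counts relative to library size, after TMM scaling) in KO livers, against 39.0, 22.4 and 56.5 CPM in WT livers (log2 fold change -5.72 ± 0.48, SE; edgeR adjusted p = 0.00151), as the labels require.

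Ribosomal protein genes encode small, basic proteins that fold onto ribosomal RNA, and most of them are made in equal numbers because each ribosome holds a single copy. Their mRNAs are short, abundant and stable. In mammals many begin with a C followed by a run of pyrimidines, the terminal oligopyrimidine (TOP) start, through which mTORC1 and the RNA-binding protein Larp1 control how well they are translated. Translation was not measured in these samples, so the values below are mRNA levels only.

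The sequences around the listed transcription start show which of the members printed here have such a run at that position. Each line gives 15 bases before the RefSeq start (GRCm38.p6) and 15 from it, 5′ to 3′, with capitals marking a pyrimidine run that opens with C at the start itself and is at least 5 bases long.
Rps6 (chr4:86857353-86857382, minus strand): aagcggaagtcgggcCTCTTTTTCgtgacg
Rpl35 (chr2:39005117-39005146, minus strand): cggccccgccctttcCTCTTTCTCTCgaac
Rpl38 (chr11:114668565-114668594, plus strand): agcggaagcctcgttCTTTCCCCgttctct
Rps27 (chr3:90213634-90213663, minus strand): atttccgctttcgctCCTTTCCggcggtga
Rps27rt (chr9:114982725-114982754, minus strand): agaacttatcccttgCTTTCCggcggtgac
Rps27l (chr9:66946071-66946100, plus strand): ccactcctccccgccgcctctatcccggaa
Rpl7l1 (chr17:46782642-46782671, minus strand): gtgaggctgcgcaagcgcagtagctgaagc
Rps19bp1 (chr15:80264292-80264321, minus strand): cagggcggaagtagctcgccgcgtgtgggc
Rps27l, Rpl7l1 and Rps19bp1 had no such run at the listed start, and neither did a second listed start of Rps27l. In the Rps27l line the letters cctct follow directly after the first base from the start. Its difference from Rps27 therefore depends on the annotated position.

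A RefSeq sequence was matched for 66 of the 86 members. Of these, 14 (21.2%) had the pyrimidine start at a listed position, against 3.01% of 27025 genes, and annotated starts can lie some bases from the start used in liver. The letters CCGGAAG, the core of ETS factor sites, were found on either strand within the window from 250 bases before to 50 after the start of 26 members (39.4%), against 9.93% of all genes. AAGATGGC, a YY1-type motif, was in 6 members (9.09%), against 3.19% of all genes. TATAAA was in 7 members (10.6%), against 15.7% of all genes. A match describes the letters and not a bound site.

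Measured per transcript length (TPM), Rps2, a small subunit protein near the mRNA entry channel, was the most abundant member, at 1309 ± 54.8 TPM in KO livers and 1177 ± 67.4 TPM in WT livers (SD, n = 3 each). Next came Rplp1, a stalk protein that recruits translation factors, at 1141 ± 186 TPM in KO livers and 1074 ± 78.5 TPM in WT livers. The order continued with Rpl10, a late-joining large subunit protein, at 911 ± 98.7 TPM in KO livers and 847 ± 99.7 TPM in WT livers. Rps14, at 787 ± 124 TPM in KO livers and 758 ± 71.1 TPM in WT livers, and Rps18, at 708 ± 107 TPM in KO livers and 709 ± 36.1 TPM in WT livers, differed by less than their spread. In KO livers the gap between Rps2 and Rplp1 was smaller than the SD of Rplp1. The 77 genes of the 2 subunits and the stalk spanned 50.4 to 1243 TPM over all 6 libraries, with a median of 410 TPM. The lowest, Rps20, is understated, because its shortest principal transcript in GENCODE M21 is 3706 bases long.

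Ribosomal protein mRNAs took a similar part of KO and WT libraries, and 1 member passed the test. Together the 86 genes made up 1.64%, 1.94% and 1.51% of all counts in KO 1, KO 2 and KO 3, against 1.43%, 1.72% and 1.52% in WT 1, WT 2 and WT 3. The groups overlapped, since KO 3 lay below WT 2 and WT 3. Per transcript length they held 3.41%, 3.93% and 3.18% of all TPM in KO livers, against 3.13%, 3.63% and 3.29% in WT livers. Of 83 members that passed the low-count filter, 1 passed the test, the paralog Rps27l, which was higher in KO livers (1.2%). In the same fit 20.4% of 14069 genes passed, 9.8% higher and 10.6% lower in KO livers. No member was called lower by edgeR's quasi-likelihood test with Benjamini-Hochberg adjustment. DESeq2 and limma voom likewise called Rps27l and no other member, and 2 members (Rps27l and Rpl10a) had an unadjusted p under 0.05 in edgeR, against 36% of all genes.

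The fold changes of the members were small, narrow and mostly of 1 sign. The fitted log2 fold change was above 0 for 82 of 83 members (against 47.9% of all genes tested) and below 0 for Rpl7l1. Their median was 0.22, a 1.16-fold difference, beside -0.02 for all genes. The 95% interval of every one of the 83 lay inside a 2-fold change in either direction, which held for 59.3% of all genes tested, and 32 lay inside a 1.5-fold change. The widest reach upward was 0.82 (Rps27l) and downward -0.47 (Rpl41). The members' median standard error was 0.17, against 0.19 over all genes.

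**Figure D1:**
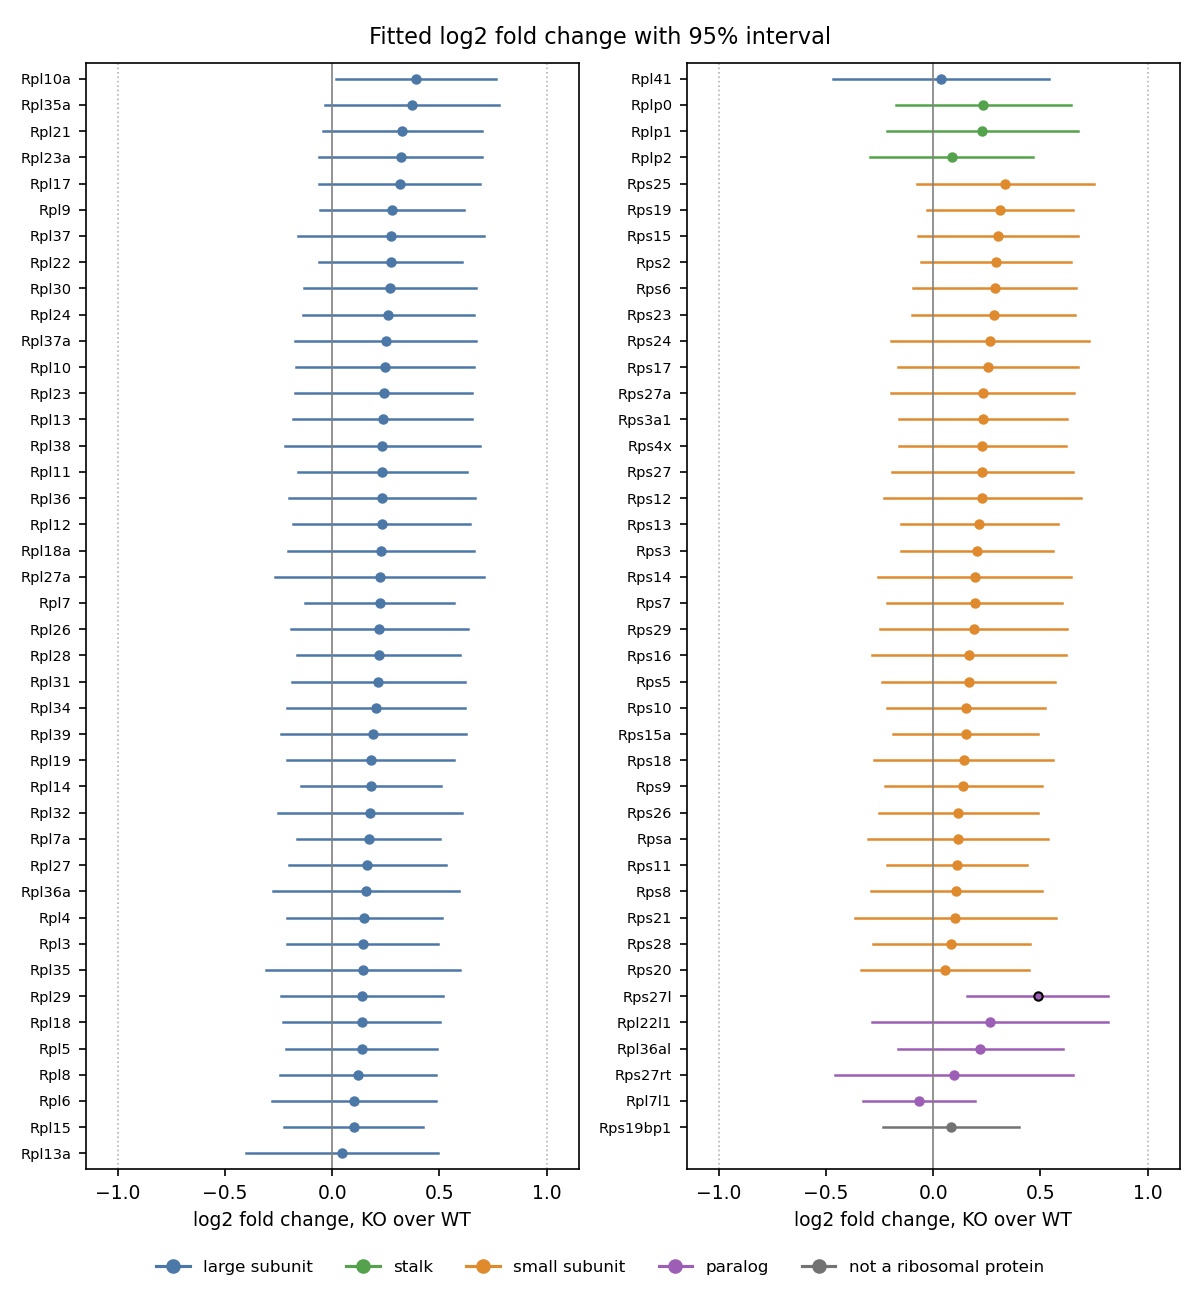
Fitted log2 fold change (KO over WT) of the 83 tested members with its 95% interval, by role and ordered within role. Dotted lines mark a 2-fold change, and a black rim marks Rps27l, the member that passed. All but Rpl7l1 lie right of 0 and all intervals stay inside the dotted lines.

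Over all tested genes, log2 fold changes were higher for shorter transcripts. Members are short, with a median transcript length of 681 bases against 2657 bases for all tested genes. Tested genes of under 1000 bases had a median log2 fold change of 0.17 (1421 genes), those of 1000 to 2000 bases 0.06, those of 2000 to 4000 bases -0.05 and longer ones -0.15. With the trend of each library with length removed, the members' median was 0.04, 54 were above 0 and 29 below, and none passed. Among the members alone, length and log2 fold change were only weakly related (Spearman's rho -0.09 over 83 genes that share all libraries). The correction still shifted each member by its annotated length, so the signs after it depend in part on that annotation. Rpl41 (437 bases) went from 0.04 to -0.20 and Rps20 (3706 bases) from 0.05 to 0.15. The part of RNA quality or library preparation in the length trend was not tested.

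**Figure D2:**
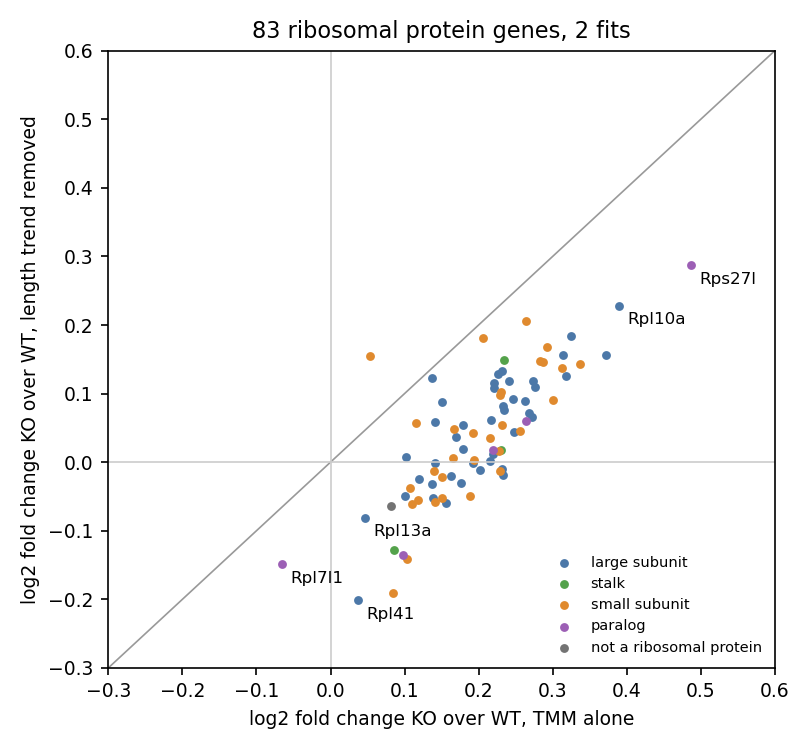
Log2 fold change (KO over WT) of the 83 tested members with libraries scaled by TMM alone (horizontal) and with each library's length trend also removed (vertical), coloured by role. All points but Rps20, whose length was taken as 3706 bases, lie below the line of equal values. The median is 0.22 across and 0.04 up.

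The members moved together from library to library. Averaged over the 83 tested genes, log2 CPM relative to each gene's own mean was 0.07, 0.37 and -0.14 in KO 1, KO 2 and KO 3, against -0.18, 0.12 and -0.23 in WT 1, WT 2 and WT 3. KO 2 was thus the highest library and WT 2 the second, and KO 3 lay close to WT 1. The group means, 0.0969 ± 0.255 in KO livers and -0.0969 ± 0.191 in WT livers (SD, n = 3 each), differed by less than 1 SD of the KO libraries. All 83 members had their highest KO value in KO 2, which held for 38.4% of all genes tested, and 82 had their highest WT value in WT 2, against 34.6% of all genes. Without KO 2 the members' median log2 fold change was 0.05, with 62 above 0 and 21 below. It was 0.15 without WT 1, 0.13 without WT 3, 0.33 without WT 2 and 0.33 without KO 3. Large and small subunit genes kept step, with means of 0.37 and 0.36 in KO 2 and of -0.15 and -0.14 in KO 3.

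**Figure D3:**
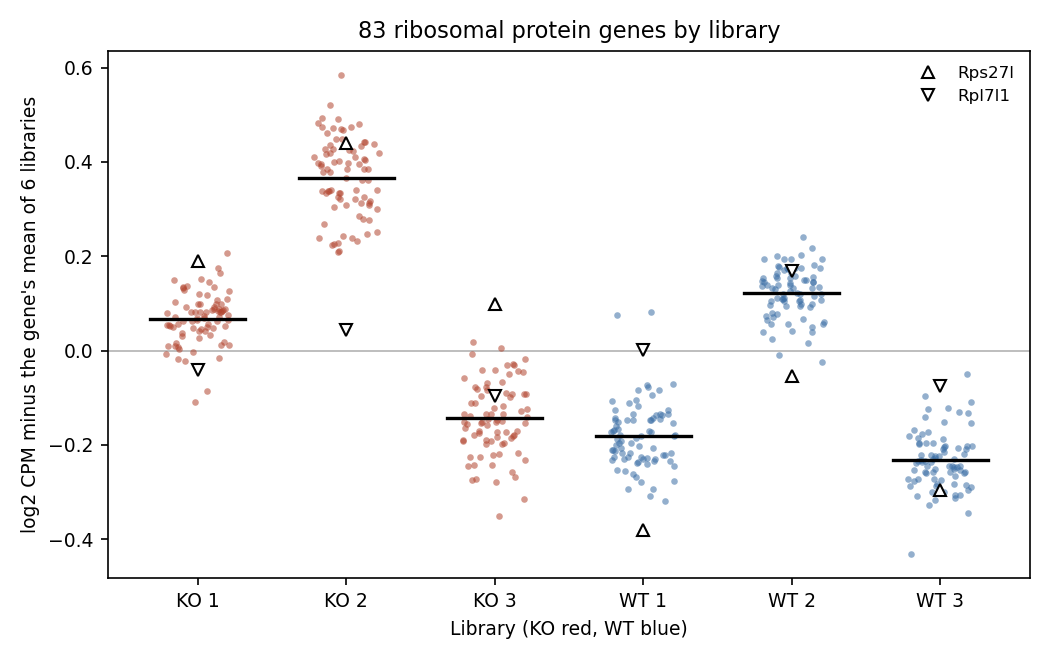
Log2 CPM of each of the 83 tested members minus that gene's mean over the 6 libraries, with KO libraries left in red and WT libraries right in blue, and a bar at the mean of each library. The members form a tight band that is highest in KO 2 and next highest in WT 2, while Rps27l stands above the band in KO 3 and Rpl7l1 below it in KO 2.

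Most members tracked the rest of the family closely. The correlation of a member with the mean of all others had a median of 0.97 over the 6 libraries and was at least 0.8 for 82 of 83 members, as a description of genes that share libraries and depth. The exception was Rpl7l1 (0.58), which encodes a protein of ribosome assembly in the nucleolus rather than a standard ribosomal protein. Rpl41 (0.81), Rps27rt (0.81) and Rps27l (0.82) came next.

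Rps27l encodes a close relative of the small subunit protein Rps27 and is known as a p53-inducible gene. It lies on chromosome 9 from 66946086 to 66949516 on the plus strand (GRCm38). It stood at 137, 163 and 129 CPM in KO 1, KO 2 and KO 3, against 92.5, 116 and 98.0 CPM in WT 1, WT 2 and WT 3. Every KO value was above every WT value, which held for no other tested member and for 18.7% of all genes tested. In either direction, the groups did not overlap for 40.7% of all genes tested. The log2 fold change was 0.49 ± 0.14 (SE; 95% interval 0.16 to 0.82; edgeR adjusted p = 0.0466), a 1.40-fold difference. Its deposited values were within 0.002 of whole numbers in every library, which held within 0.01 for 13 members, so its reads were hardly divided with other genes. The call did not hold without KO 1 (adjusted p = 0.139), KO 2 (0.134), KO 3 (0.0591), WT 1 (0.132) or WT 3 (0.111), with upper-quartile scaling (0.0630), library totals alone (0.0607) or the length trend removed (0.0909).

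The partner Rps27 had 105, 128 and 85.9 CPM in KO livers, against 80.6, 110 and 82.0 CPM in WT livers. Its groups overlapped and it did not pass (log2 fold change 0.23 ± 0.18, edgeR adjusted p = 0.411). Within each library the ratio of Rps27l to Rps27 was 1.3026, 1.2755 and 1.5005 in KO livers, against 1.1469, 1.0565 and 1.1946 in WT livers. This ratio does not depend on scaling, and the groups did not overlap. The difference in mean log2 ratio was 0.26 (exact two-sided permutation p = 0.1, the smallest that 3 against 3 allows, and 0.25 adjusted over the 5 paralog pairs compared). Rps27rt, an intronless copy of Rps27, was read at only 2.32, 2.64 and 1.96 CPM in KO livers, against 2.34, 2.31 and 1.80 CPM in WT livers. Its reads can be shared with Rps27, whose values were up to 0.479 from whole numbers.

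**Figure D4:**
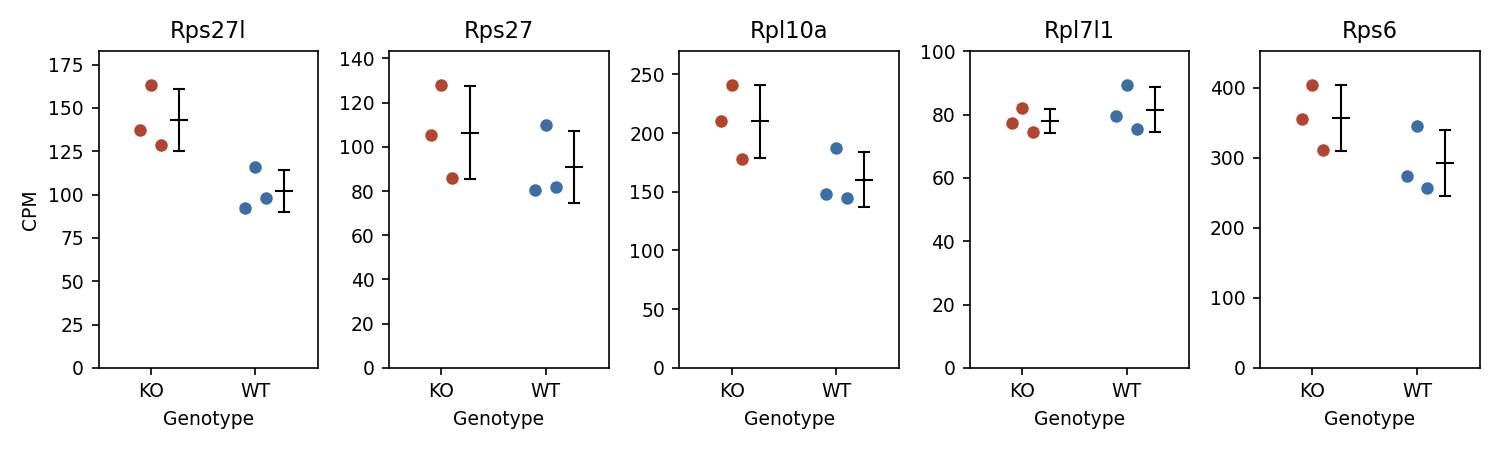
CPM of 5 members in each KO (left, red) and WT (right, blue) library, with mean and SD (n = 3 each) in black, on axes from 0. Rps27l alone has groups that do not overlap, and those of Rpl7l1 overlap, with the lowest value in KO 3 and the highest in WT 2.

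Other paralogs did not pass. Rpl7l1 had 77.4, 82.1 and 74.4 CPM in KO livers, against 79.7, 89.5 and 75.6 CPM in WT livers (log2 fold change -0.07 ± 0.11, edgeR adjusted p = 0.720). Set against Rpl7, a large subunit protein, its ratio was 0.257, 0.232 and 0.274 in KO livers, against 0.315, 0.300 and 0.310 in WT livers. All KO ratios lay below all WT ratios (mean log2 difference -0.28, exact two-sided permutation p = 0.1, adjusted 0.25). Rpl22l1, which can replace the RNA-binding protein Rpl22, had a ratio to Rpl22 of 0.416, 0.539 and 0.411 in KO livers, against 0.472, 0.506 and 0.404 in WT livers, with overlapping groups. Rpl36al, which encodes nearly the same protein as Rpl36a, stood at 1.82 ± 0.0884 times Rpl36a in KO livers and 1.73 ± 0.0754 times in WT livers (SD, n = 3 each), also overlapping. Rps4x, a small subunit protein encoded on the X chromosome, had 299, 367 and 268 CPM in KO livers, against 253, 308 and 234 CPM in WT livers (0.23, edgeR adjusted p = 0.368). Its copy Rps4l is annotated as a pseudogene, is no member and did not pass (-0.75, edgeR adjusted p = 0.137). On the TPM scale Rpl22l1 was at 0.395 of the level of Rpl22 and Rps27l at 0.859 of that of Rps27.

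The 3 members that did not reach the filter are paralogs known from other tissues. Rpl10l and Rpl39l, expressed mainly in testis, had 0 counts in all libraries, which allows up to 0.0631 to 0.0833 CPM per library (3 counts, for counting error only). Rpl3l, a form of Rpl3 of heart and skeletal muscle, had 2, 0 and 2 counts in KO livers, against 3, 1 and 0 in WT livers. Rpl3 itself, which helps form the peptidyl transferase center, had 295, 347 and 284 CPM in KO livers, against 257, 327 and 257 CPM in WT livers (log2 fold change 0.14 ± 0.15, edgeR adjusted p = 0.549).

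Large subunit genes ranged in log2 fold change from 0.04 (Rpl41) to 0.39 (Rpl10a), with a median of 0.22 over 43 genes. Rpl10a, a protein of the L1 stalk, had 210, 241 and 178 CPM in KO livers, against 148, 187 and 145 CPM in WT livers. WT 2 exceeded KO 3, so the groups overlapped, and the gene did not pass (0.39 ± 0.16, edgeR adjusted p = 0.124). Rpl35a, mutated in some Diamond-Blackfan anemia families in humans, had 126, 166 and 107 CPM in KO livers, against 96.5, 115 and 96.8 CPM in WT livers (0.37 ± 0.18, edgeR adjusted p = 0.170). At the other end, Rpl13a, a protein also known for translational control in interferon-treated human cells, had 391, 503 and 315 CPM in KO livers, against 370, 448 and 352 CPM in WT livers. Both the highest and the lowest of its 6 values came from KO livers. Rpl41, the shortest ribosomal protein, behaved in the same way, with 143, 213 and 121 CPM in KO livers, against 162, 172 and 131 CPM in WT livers. The sign of the small fold changes of Rpl13a (0.05) and Rpl41 (0.04) turned to negative with upper-quartile scaling, library totals alone, the length trend removed and without KO 2 or WT 3.

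Rpl5 and Rpl11, which bind 5S ribosomal RNA and hold the p53 regulator Mdm2 when ribosome assembly fails, were looked up after the values were seen. Rpl5 had 321, 365 and 291 CPM in KO livers, against 290, 339 and 260 CPM in WT livers (log2 fold change 0.14 ± 0.15, edgeR adjusted p = 0.560). Rpl11 had 226, 275 and 190 CPM in KO livers, against 180, 226 and 182 CPM in WT livers (0.23 ± 0.17, edgeR adjusted p = 0.367). Neither set of KO values cleared the WT values.

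Of the stalk genes, Rplp0, which anchors the stalk, had 466, 571 and 391 CPM in KO livers, against 370, 464 and 380 CPM in WT livers (0.23 ± 0.18, edgeR adjusted p = 0.383). Its acidic partners had log2 fold changes of 0.23 (Rplp1) and 0.09 (Rplp2). The KO and WT values overlapped for all 3.

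Small subunit genes ranged in log2 fold change from 0.05 (Rps20) to 0.34 (Rps25), with a median of 0.19 over 31 genes. Rps6, the substrate of the S6 kinases, had 355, 404 and 311 CPM in KO livers, against 274, 345 and 257 CPM in WT livers (0.29 ± 0.17, edgeR adjusted p = 0.254). WT 2 stood above KO 3 here too. Rps2 had 830, 938 and 753 CPM in KO livers, against 645, 769 and 645 CPM in WT livers (0.29 ± 0.15, edgeR adjusted p = 0.208). Rpsa, which also serves as a laminin receptor, had 503, 613 and 409 CPM in KO livers, against 429, 537 and 442 CPM in WT livers (0.12 ± 0.18, edgeR adjusted p = 0.690). The lowest of its values was that of KO 3. The lowest adjusted p of any small subunit gene was 0.169 (Rps19).

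The 4 X-linked members (Rpl10, Rpl36a, Rpl39 and Rps4x) had log2 fold changes of 0.16 to 0.25, within the range of the others. Members with a pyrimidine start at the listed position had a median log2 fold change of 0.15 (14 genes), against 0.22 for tested members with a sequence and no such start (49 genes), and the ranges overlapped, 0.09 to 0.37 and -0.07 to 0.49. Rps19bp1 had 11.8, 14.2 and 11.3 CPM in KO livers, against 11.5, 12.5 and 11.3 CPM in WT livers (0.08 ± 0.14, edgeR adjusted p = 0.711). Pseudogenes named after members held 0.412% to 0.460% as many counts as the members, and adding them to their parents left Rps27l as the only member called.

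Other genes of translation were compared in the same fit, in which 20.4% of all genes passed, 9.8% higher and 10.6% lower in KO livers. Fau and Rack1, ribosomal proteins that bear other names, did not pass (log2 fold changes 0.30 ± 0.16 and 0.13 ± 0.15, edgeR adjusted p = 0.218 and 0.575). Of 40 initiation factors, 1 rose and 1 fell, with a median log2 fold change of 0.01. The cap-binding protein Eif4e rose to 124 ± 6.66 CPM in KO livers, against 79.2 ± 9.95 CPM in WT livers (SD, n = 3 each; 0.65 ± 0.13, edgeR adjusted p = 0.0147). Its scaffold relative Eif4g3 fell to 44.95 ± 4.76 CPM in KO livers, against 63.7 ± 4.73 CPM in WT livers (-0.50 ± 0.12, edgeR adjusted p = 0.0255). Of 14 elongation and release factors, the release factor Gspt2 fell (-1.56 ± 0.33, edgeR adjusted p = 0.0168) and none rose. Eef1a1, which brings aminoacyl-tRNAs to the ribosome, had 3854 CPM on average in KO livers and 3014 CPM in WT livers (0.35 ± 0.15, edgeR adjusted p = 0.134). Eif4e did not pass without KO 1 (adjusted p = 0.0811), Eif4g3 without KO 1, KO 2, WT 1 or WT 3 (up to 0.118) and Gspt2 without KO 1 or KO 2 (up to 0.0751).

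Among 21 other mRNAs known for a TOP start, 1 rose and 1 fell, with a median log2 fold change of 0.24. Over all genes tested, 9.8% rose and 10.6% fell. The splicing regulator Hnrnpa1 rose (0.54 ± 0.11, edgeR adjusted p = 0.0151) and the histone chaperone Nap1l1 fell (-0.53 ± 0.14, edgeR adjusted p = 0.0306). Of 28 tested genes of mTORC1 and its outputs, 2 rose and 0 fell, with a median of -0.01. They were Deptor, an mTOR inhibitor (0.49 ± 0.14, edgeR adjusted p = 0.0388), and the p53-inducible sestrin Sesn1 (1.01 ± 0.29, edgeR adjusted p = 0.0454). The sestrins Sesn2 (-0.04 ± 0.18, edgeR adjusted p = 0.900) and Sesn3 (0.64 ± 0.25, edgeR adjusted p = 0.103) did not pass. Larp1 had a log2 fold change of 0.02 ± 0.11. Of 9 tested genes listed as S6 kinases by their Rps6k symbol alone, none passed, with a median of -0.14. Rps6kb1 and Rps6kb2 had log2 fold changes of -0.13 ± 0.10 and -0.23 ± 0.15. Hnrnpa1 did not pass without KO 1 or WT 1 (adjusted p up to 0.0658), Nap1l1 without KO 1, KO 2, WT 1 or WT 2 (up to 0.130), Deptor without the same 4 libraries (up to 0.148) and Sesn1 without any 1 library other than KO 3 (up to 0.126). Deptor and Sesn1 also missed the threshold with upper-quartile scaling (0.0545 and 0.0546) or library totals alone (0.0830 and 0.0591), and Sesn1 with limma voom (0.0749).

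Cell types other than hepatocytes also supply ribosomal protein mRNA, and in bulk tissue fewer cells of a type and less RNA per cell cannot be told apart. The hepatocyte markers were abundant throughout, with a summed level of 62400 to 81342 CPM in KO livers and 57423 to 73663 CPM in WT livers, and 1 of 7 (Cyp2e1) passed, upward. All 5 erythroid markers rose, with a summed level of 1178 to 1546 CPM in KO livers, against 368 to 546 CPM in WT livers. Kupffer cell markers, of which 4 of 7 fell, summed to 43.3 to 58.4 CPM in KO livers, against 89.8 to 211 CPM in WT livers. Proliferation markers gave 1 rise (Pcna) and 4 falls among 6, B and plasma cell markers 1 rise (Jchain) among 2 tested, biliary markers 2 rises among 5, T and NK cell markers 1 rise among 5 and stellate markers 1 fall among 6. Neutrophil and sinusoidal endothelial markers gave no call, and no marker was at 0 in all libraries. The T and NK cell call, Cd3g, had 0.433, 0.399 and 0.400 CPM in KO livers, against 0.138, 0.179 and 0.0833 CPM in WT livers. Its WT 3 value equals 3 counts. For comparison, 9.8% of all genes tested rose and 10.6% fell. Mitochondrially encoded transcripts took 10.8%, 10.1% and 11.7% of KO libraries, against 6.52%, 8.34% and 7.72% of WT libraries. The part of these differences in the values of the ribosomal protein genes was not tested, and leaving mitochondrial and hemoglobin genes out of the fit left Rps27l as the only member called.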

How the data were processed

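The authors deposited 1 table of expected counts per Ensembl gene, estimated counts that need not be whole, for 6 libraries (column names per the file headers). Per the submitters' processing notes the tools were Trim Galore, STAR and Salmon and the build GRCm38; their order, versions and annotation: not given in the sources used here. Estimated counts divide ambiguous reads by a model, and 13 members were whole within 0.01 in all libraries, so values of members with close copies are less certain. Symbols (45143 of 45706 genes), positions and lengths came from GENCODE M21 (GRCm38). Length is the shortest APPRIS principal coding transcript, and per-length levels (TPM) were computed from the deposited counts.

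Values were rounded, filtered with filterByExpr (minimum count 10), scaled by TMM and tested with edgeR 4.0.16 (glmQLFit, robust; R 4.3.3) on genotype alone, two-sided, with Benjamini-Hochberg adjustment over 14069 genes and a threshold of 0.05. The common dispersion was 0.0461. Standard errors are |log2 fold change|/√F, and intervals take the t quantile of the fit. The fit was checked on simulated counts. Alternatives used limma 3.58.1, DESeq2 1.42.0, other scalings and filters, a threshold of 0.1, each library left out, a replicate block, a length correction (lowess span 0.5), and pseudogenes pooled or mitochondrial and hemoglobin genes removed. Figures used matplotlib 3.10.9.

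The members, lists and tests were chosen with earlier results of these data known. Members named are those that passed, the 5 highest in TPM, the 3 highest and 3 lowest in log2 fold change (mean log2 CPM of at least 1), Rps6, Rplp0, Rpl3, Rpsa and the paralog pairs, and of each other list up to 4 genes that passed (mean log2 CPM of at least 0). Further members mark the ends of a range. Larp1, Eef1a1 and genes named otherwise were chosen after their values were seen. A further gene of the translation lists is not reported here.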

Additional observations from a re-analysis of the deposited data

How the results depend on the processing

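Of 20 alternatives, none called a member lower in KO livers, and none called more than 1 higher. The number higher was 0 with upper-quartile scaling, library totals alone, the replicate block or the length trend removed, and 0 to 1 when each library was left out. Replicate numbers are not stated to mark shared animals or days. Over 14069 genes, the deviations of same-numbered libraries correlated by -0.08, 0.01 and -0.09, and 0 of 6 libraries correlated best with their own number. Of the members, 83 were highest in KO 2 among KO libraries and 82 in WT 2 among WT libraries. The members varied together (median pairwise correlation 0.95), so these counts describe a shared pattern and not independent genes. Whether same-numbered libraries share a day or batch was not tested. With the replicate block, 807 genes in all were higher and 661 lower in KO livers, Rps27l had an adjusted p of 0.0545, Nap1l1, Deptor and Sesn1 did not pass (0.0811, 0.0944 and 0.107), and Rps4l did (0.0410). Leaving out each library gave 385 to 1390 genes higher and 218 to 1690 lower, and a threshold of 0.1 gave 2249 lower. The adjusted p of Rps27l ran from 0.0129 to 0.139 over its 20 alternatives, and its log2 fold change from 0.29 to 0.59. With the length trend removed 29 of 83 members were below 0, and of the members picked by the naming rule those that turned sign were Rpl41 (-0.20), Rpl13a (-0.081), Rps18 (-0.058), Rpl36a (-0.060), Rpl39 (-6.3e-04), Rps27 (-0.013), Rps27rt (-0.14) and Rps19bp1 (-0.064). With upper-quartile scaling 3 members, and with library totals alone 4, were below 0, among them Rpl41 (-0.0096 and -0.043) and Rpl13a (-6.4e-04 and -0.034). Without KO 2, 21 members were below 0, and over the fits that left out each library the ranges of these members picked by the rule crossed 0, namely Rpl41 (-0.23 to 0.20), Rpl13a (-0.14 to 0.20), Rps14 (-0.0012 to 0.32), Rps18 (-0.041 to 0.27), Rpsa (-0.041 to 0.25), Rpl22l1 (-0.0030 to 0.45), Rpl36a (-0.036 to 0.31), Rpl39 (-0.024 to 0.34), Rps27rt (-0.017 to 0.21), Rps19bp1 (-0.025 to 0.15) and Rpl7l1 (-0.12 to 0.0056). None of the genes named in these 3 sentences passed in any setting, and the cause was not tested. Library totals alone shifted the median log2 fold change of all genes to -0.10. With 3 libraries a group, differences of the members' usual size, about 1.16-fold, could not be told from the spread between libraries.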
